A study of Homo sapiens with 2 samples.

Results

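The BCL2 family decides whether a stressed cell opens its mitochondrial outer membrane and dies by apoptosis. The expression of 10 of its genes was examined, 4 survival genes (MCL1, BCL2L1, BCL2L2 and BCL2), the membrane-permeabilising effector BAK1 and 5 BH3-only genes (BID, BAD, BMF, BCL2L11 and BIK). They were selected by gene name from the 58735 genes of a deposited FPKM table, and all 10 were found. FPKM is the number of fragments of a gene relative to the length of its exons and to a library total. The 2 libraries came from U87MG, an established human glioblastoma line, kept for a week as glioma spheres in stem cell medium. One library, the control, was from cells given the pGIPZ-CTRL lentivirus. The other was labelled as carrying an shRNA that targets TRIP13, the ATPase that acts on MAD2 in the spindle checkpoint. Both were selected with puromycin. The labels speak of stable clones but not of how many clones or shRNA sequences a library represents. The question of the comparison is how TRIP13 affects gene expression in glioma cells. Since each group is 1 library, no difference has a replicate check or a test, and all values compare these libraries, not the conditions.

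Survival proteins hold the effectors BAK1 and BAX inactive in a hydrophobic groove. BH3-only proteins are the sensors of stress. Their BH3 helix occupies that groove or, for some of them, activates the effectors directly, and active effectors form pores that release cytochrome c. In glioblastoma cells MCL1 and the BCL2L1 product BCL-xL are known as main survival proteins.

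TRIP13 itself stood at 23.1 FPKM in the library labelled shTRIP13 and at 11.9 FPKM in the control, which goes against the label. The ratio of the first to the second was 1.95, with a 95% counting interval of 1.79 to 2.12. Neither label is thus certain. Exchanged labels, which would turn every direction below, cannot be told apart here from correct ones, and "control" below means the library labelled shcon. The reads recovered from the FPKM values summed to 19903836 in the library labelled shTRIP13 and to 18871063 in the control, and the deposited values are not corrected for this difference. Of the glioma and neural markers, VIM (427 against 442 FPKM) and CD44 (112 against 115) were abundant, NES had 2.21 against 5.23, while GFAP, SOX2 and S100B were below 0.5 FPKM in both libraries. The 4 fibroblast and pericyte markers summed to 4.42 against 22.0 FPKM, with none at 0. By the size rule defined below, 3 of the 4 were at least 2-fold lower, beside 4.19% of the tested genes, also defined below. Of these 3, DCN (0.133 against 1.55 FPKM) had a mean level too low to count among the tested genes. The 4 endothelial markers summed to 2.88 against 5.24 FPKM, all 4 lower, with PECAM1 at 1 against 45 reads and CDH5 at 0 against 6. The 4 astrocyte markers summed to 70.2 against 114 FPKM with AQP4 at 0 in both, and the 4 oligodendrocyte markers to 0.447 against 2.95, with OLIG2 at 22 against 177 reads and MOG at 0 in both. The 4 neuronal markers summed to 7.97 against 8.997 FPKM. The 5 microglia and macrophage markers summed to 3.47 against 4.11 FPKM, with AIF1 and CX3CR1 at 0 in both libraries. The part of these marker differences in the results below was not tested. In bulk RNA, fewer cells of a type and less RNA per cell cannot be told apart.

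The feature that the family shares is the BH3 helix, and the bases that encode it are shown for the 6 genes whose levels lay furthest apart between the libraries among those with a mean FPKM of 1 or more. Each stretch is 27 bases from the coding strand of 1 GENCODE release 29 transcript, 5′ to 3′. The capitals mark the codon for leucine and, after 3 codons in lower case, a codon for glycine, alanine or serine followed by that for aspartate.

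MCL1: TTAcgacgggttGGGGATggcgtgcag

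BCL2L1: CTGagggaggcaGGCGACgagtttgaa

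BAK1: CTCgccatcatcGGGGACgacatcaac

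BID: CTCgcccaggtcGGGGACagcatggac

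BAD: CTCcggaggatgAGTGACgagtttgtg

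BMF: CTTcagtgcattGCAGACcagttccac

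On hg38 these lie at chr1:150578868-150578894 (MCL1), chr20:31721925-31721951 (BCL2L1), chr6:33575390-33575416 (BAK1), chr22:17739418-17739444 (BID), chr11:64271625-64271651 (BAD) and chr15:40104198-40104224 (BMF). All are coding exon sequence on the minus strand. The leucine is residue 213 of 350 in MCL1, 90 of 233 in BCL2L1, 78 of 211 in BAK1, 136 of 241 in BID, 114 of 168 in BAD and 137 of 184 in BMF, counted from the start of the protein of that transcript. MCL1, BCL2L1, BAK1 and BID encode glycine before the aspartate, BAD serine and BMF alanine. The pattern was present in 9 of the 10 genes and had no match in the BCL2L2 coding sequence. It requires leucine at its first position, so a missing match does not show that the helix is absent. BID held a further match at residue 71. The pattern is short and not particular to the family, since 35.0% of 19512 human coding sequences hold it at least once.

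Among the survival genes, the abundant members were lower in the library labelled shTRIP13. MCL1 and BCL2L1 lay below the control there, BCL2L2 was nearly level, and BCL2, which was scarce in both libraries, lay above it. MCL1 encodes a short-lived protein that binds BAK1 and several BH3-only proteins. Its gene (ENSG00000143384, hg38 chromosome 1, 150574551 to 150579738, minus strand) had 80.6 FPKM in the library labelled shTRIP13 and 157 FPKM in the control, from 6830 and 13326 reads. It was the most abundant member in both. It was 1.95-fold lower in the library labelled shTRIP13 (95% counting interval 1.89 to 2.01). Each interval beside a ratio is an exact Clopper-Pearson interval computed from the reads of both libraries, and it covers counting error only.

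BCL2L1 (ENSG00000171552, chromosome 20, 31664452 to 31723989, minus strand) encodes BCL-xL, the survival protein of the outer mitochondrial membrane, and by an alternative splice site the shorter death-promoting BCL-xS. It had 24.5 FPKM in the library labelled shTRIP13 and 35.8 in the control, from 1575 and 2300 reads, 1.46-fold lower (1.37 to 1.56). It was the second most abundant member in both libraries. Of its exon length, 43.0% is shared with the antisense gene ABALON, which itself had 53 against 69 reads. Whether the authors' counting used strand is not given in the sources used here, so reads of a gene and its antisense partner cannot be told apart. Of the MCL1 exon length, 0.0458% is shared with another gene.

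BCL2L2, which encodes the survival protein BCL-w (ENSG00000129473, chromosome 14, 23298790 to 23311759, plus strand), had 9.34 FPKM in the library labelled shTRIP13 and 9.47 in the control. At this depth no difference was detectable, with a ratio of 0.986 (0.890 to 1.09). The readthrough gene BCL2L2-PABPN1 shares exons with it and had 42 against 25 reads. In all, 24.3% of the exon length of BCL2L2 is shared with that gene and with PPP1R3E. BCL2, the founding survival gene (ENSG00000171791, chromosome 18, 63123346 to 63320128, minus strand), had only 0.579 FPKM in the library labelled shTRIP13 and 0.346 in the control, from 132 and 79 reads. The ratio was 1.67 (1.25 to 2.24). MCL1 exceeded BCL2 139-fold in the library labelled shTRIP13 and 454-fold in the control, as a ratio of FPKM levels within a library.

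The effector BAK1 went the other way. BAK1 (ENSG00000030110, chromosome 6, 33572547 to 33580293, minus strand), the pore-forming protein that MCL1 and BCL-xL restrain, had 9.75 FPKM in the library labelled shTRIP13 and 4.46 in the control. The values came from 418 and 191 reads and gave a ratio of 2.19 (1.84 to 2.61). It was the 1 member more than 2-fold higher by the plain ratio of FPKM, a size that 4.12% of 10671 tested genes reached. With the median ratio of the tested genes set to 1, BAK1 had a ratio of 1.99 (1.67 to 2.37), just under 2-fold. MCL1 had 0.465 (0.452 to 0.479) on that scale, more than 2-fold lower. The BAK1 processed pseudogene BAK1P1 had 7 against 5 reads and BAK1P2 had 0 in both, so few reads were assigned to these copies. How reads that map to more than 1 copy were counted is not given in the sources used here. Of the BAK1 exon length, 4.11% is shared with GGNBP1, which had 0 against 3 reads.

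**Figure D1:**
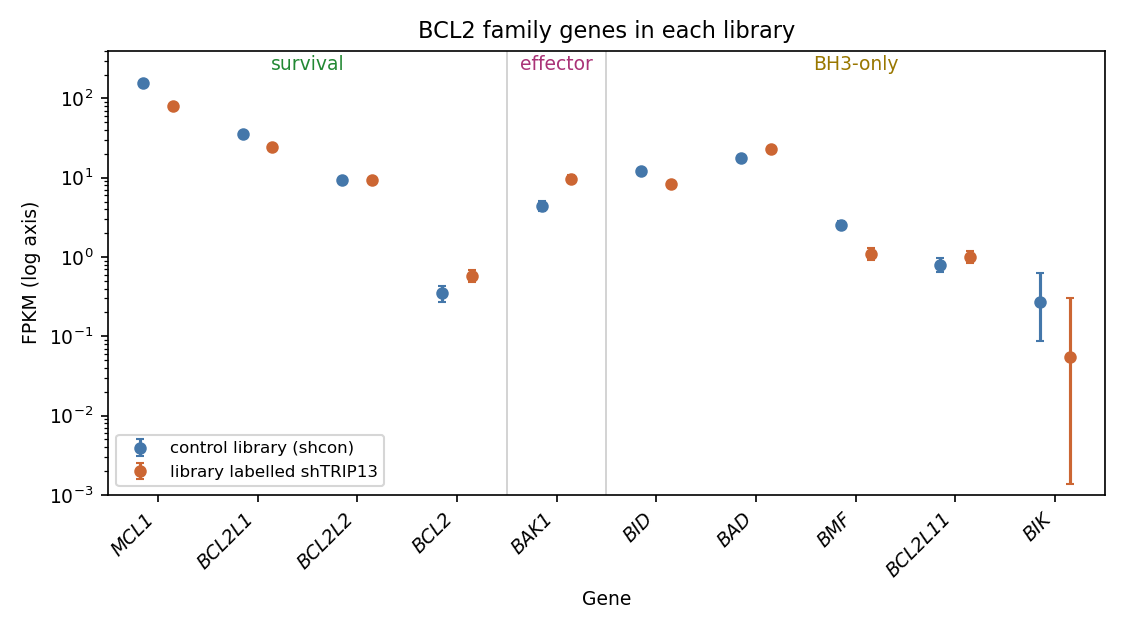
FPKM of each of the 10 genes on a log axis, by role, in the control library (blue) and the library labelled shTRIP13 (orange); points are single libraries and bars are 95% exact Poisson intervals of the reads. MCL1 is the highest gene in both libraries, at 157 and 80.6 FPKM, and BAK1 and BAD are higher in the library labelled shTRIP13 while MCL1, BCL2L1, BID and BMF are lower.

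The BH3-only genes differed in both directions, with BAD higher and BID and BMF lower in the library labelled shTRIP13. BID (ENSG00000015475, chromosome 22, 17734138 to 17774770, minus strand), which caspase-8 cleaves to link death receptors to mitochondria, had 8.37 FPKM in the library labelled shTRIP13 and 12.2 in the control. From 721 and 1049 reads it was 1.45-fold lower (1.32 to 1.60). BMF (ENSG00000104081, chromosome 15, 40087890 to 40108892, minus strand), a sensor tied to the actin cytoskeleton and to loss of attachment, had 1.10 against 2.53 FPKM. From 116 and 267 reads it was 2.30-fold lower (1.84 to 2.89). A plain FPKM ratio at least 2-fold lower was reached by 6.72% of the tested genes. BMF-AS1, which overlaps 8.46% of the BMF exon length, had 0 reads in both libraries.

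BAD, a BH3-only protein held in check by survival kinases (ENSG00000002330, chromosome 11, 64269830 to 64284704, minus strand), had 22.7 FPKM in the library labelled shTRIP13 and 17.8 in the control, from 752 and 588 reads. Its ratio was 1.28 (1.15 to 1.43). GPR137 on the other strand covers 23.7% of its exon length and had a ratio of 1.06 (0.978 to 1.14), with 1356 against 1284 reads.

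BCL2L11, which encodes BIM, a strong activator that binds all survival proteins (ENSG00000153094, chromosome 2, 111119378 to 111168447, plus strand), had 1.01 against 0.798 FPKM. With 130 and 103 reads no difference was detectable at this depth, the ratio being 1.26 (0.967 to 1.65). The long noncoding gene MIR4435-2HG on the other strand shares 10.9% of its exon length and had 814 against 566 reads. BIK (ENSG00000100290, chromosome 22, 43110748 to 43129712, plus strand), a BH3-only protein of the endoplasmic reticulum, had 1 read in the library labelled shTRIP13 and 5 in the control. Its ratio of 0.200 (0.00423 to 1.79) sets no direction.

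**Figure D2:**
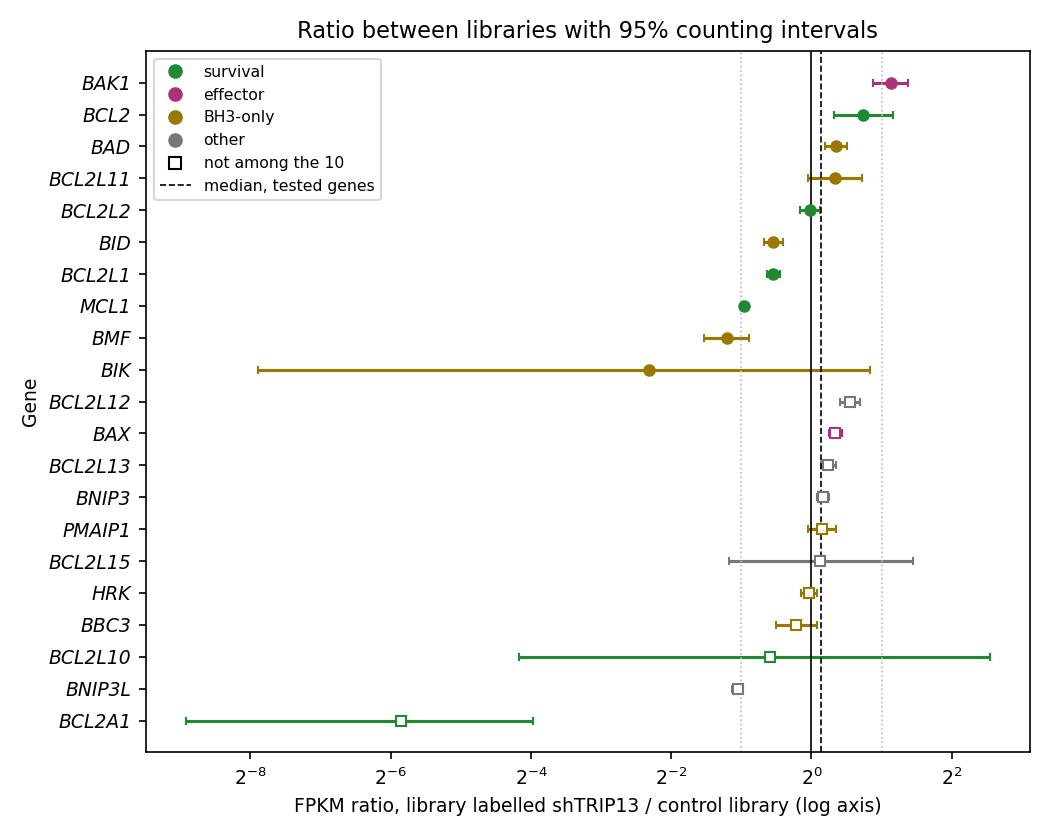
Ratio of FPKM in the library labelled shTRIP13 to that in the control, on a log axis, with 95% counting intervals, for the 10 genes (filled circles) and the other family genes with reads in both libraries (open squares), coloured by role. The solid line is a ratio of 1, the dashed line the median ratio of all tested genes, 1.10, and the dotted lines are 2-fold; BAK1 lies highest of the 10, and BIK has the widest interval of all because it rests on 1 and 5 reads.

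Of the 10 genes, the counting interval lay above 1 for 3 (BAK1, BCL2 and BAD), below 1 for 4 (MCL1, BCL2L1, BID and BMF) and held 1 for 3. The tested genes were the 10671 protein-coding genes whose mean FPKM reached 1. Among them the interval lay above 1 for 49.0% and below 1 for 29.5%. With the median ratio of the tested genes set to 1 these shares were 37.9% and 38.1%. The members then stood at 3 above and 5 below, the added gene being BCL2L2 at a ratio of 0.895 (0.808 to 0.990). Of the 10, 7 were tested genes, with 2 above and 4 below as deposited and 2 and 5 after that scaling. Differences beyond counting error were thus common among the tested genes in this pair of libraries.

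Differences were also expressed on the log2(FPKM + 1) scale, as the library labelled shTRIP13 minus the control. This log2 ratio makes differences of genes with low FPKM look smaller. A gene passed the size rule where its log2 ratio reached 1 or -1. By this rule 0 of the 10 genes were counted, or up to 2 under other pseudocounts and scalings, and 6.36% of the tested genes were, 2.17% higher and 4.19% lower. Of the 10, 7 had a mean FPKM of 1 or more, and BCL2, BCL2L11 and BIK did not. BAK1 at 0.98 and MCL1 at -0.96 were just inside the threshold. The median log2 ratio of the 10 genes was -0.14 and that of all tested genes 0.12. Relative to that 0.12, BAK1 lay at 0.86, BAD at 0.22, MCL1 at -1.07, BMF at -0.87, BCL2L1 at -0.65 and BID at -0.61.

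Placed among the tested genes, the log2 ratio of BAK1 was above that of 97.6% of them and that of BAD above 70.0%. The log2 ratio of MCL1 was below that of 95.3%, BMF below 93.1%, BCL2L1 below 88.4% and BID below 87.4%. BCL2L2 at -0.02 lay near the centre, below 61.9%.

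**Figure D3:**
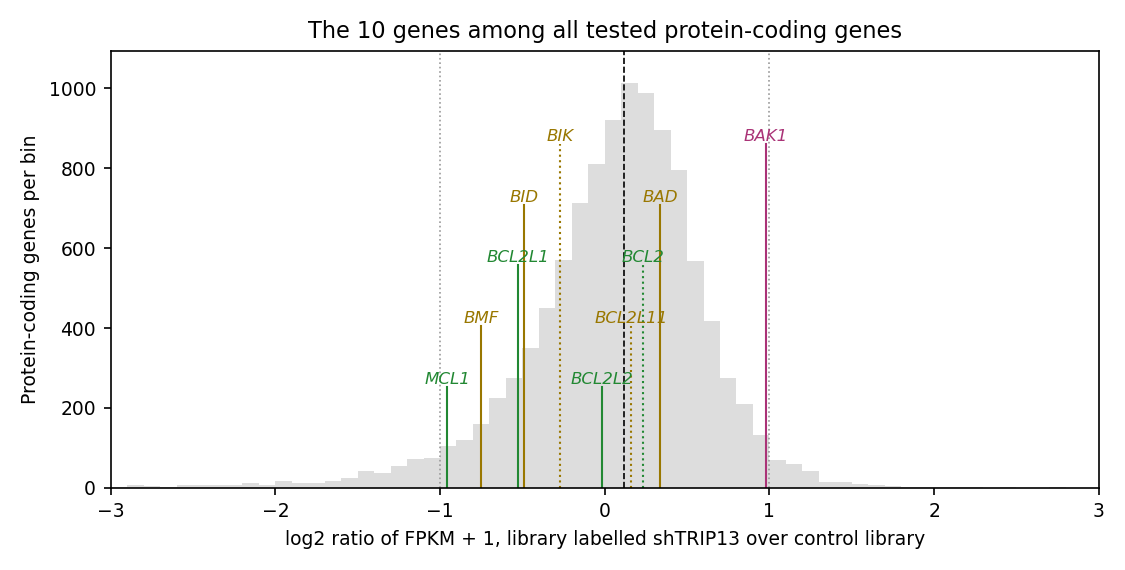
Histogram of the log2 ratio of FPKM + 1 over the 10671 tested protein-coding genes (grey; the axis shows -3 to 3), with the 10 genes marked in the colour of their role (green survival, purple effector, brown BH3-only; dotted where the mean FPKM is below 1). The dashed line is the median of the tested genes, 0.12, and the dotted grey lines the size rule; MCL1 and BAK1 stand just inside opposite thresholds.

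The order of FPKM levels differed between the libraries in the middle of the range. In the control, MCL1 was followed by BCL2L1, BAD, BID, BCL2L2, BAK1, BMF, BCL2L11, BCL2 and BIK. Neighbours in that order had separate 95% Poisson intervals except BCL2 and BIK. In the library labelled shTRIP13 the first 3 places and the last 4 were held by the same genes, while BAK1, BCL2L2 and BID followed in that order between them. There, BCL2L1 (23.3 to 25.8 FPKM) and BAD (21.1 to 24.4) were not separated by counting error. Neither were BAK1 (8.84 to 10.7) and BCL2L2 (8.68 to 10.03), BCL2L2 and BID (7.77 to 9.001), or BMF and BCL2L11.

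Summed by role, the 4 survival genes had 115 FPKM in the library labelled shTRIP13 and 203 in the control. The 5 BH3-only genes summed to 33.2 and 33.5 FPKM, nearly level, because BAD was higher while BID and BMF were lower. MCL1 made up 70.1% of the survival sum in the library labelled shTRIP13 and 77.5% in the control, as a share of FPKM and not of reads. As levels within a library, MCL1 stood at 8.27 times BAK1 in the library labelled shTRIP13 and at 35.3 times BAK1 in the control. MCL1 and BAK1 had the lowest and the highest log2 ratio of the 10, so their pair joins the extremes. BCL2L1 stood at 2.51 and 8.04 times BAK1, and MCL1 at 3.29 and 4.39 times BCL2L1. These ratios compare the 2 libraries whatever their depth, since both genes of a ratio come from the same library.

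The values are per gene and do not separate transcripts. GENCODE release 29 lists 3 protein-coding transcripts for MCL1, 9 for BCL2L1, 17 for BCL2L11, 11 for BID, 9 for BMF and 1 for BIK. MCL1 and BCL2L1 are both known for shorter splice forms that promote death, and how the reads divide between forms was not measured here.

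Of the 13 other family genes, 9 had a mean FPKM of 1 or more. BCL2A1 and BNIP3L were lower past the size rule, which 4.19% of the tested genes were. BCL2A1, a survival gene induced by NF-kB and best known from blood cells, had 0.0948 FPKM there and 5.50 in the control, from 2 and 116 reads. It was 58.0-fold lower (15.7 to 485), and it reached the mean FPKM of 1 through the control library alone, so that its passing the size rule is no separate support. The leukocyte marker PTPRC had 0 against 11 reads, and its part in the BCL2A1 value was not tested. BNIP3L, a mitophagy receptor, had 21.9 against 45.4 FPKM and was 2.08-fold lower (1.96 to 2.20). Its log2 ratio of -1.02 was -0.91 with a pseudocount of 5 FPKM, short of the size rule.

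BAX, the other main effector, had 42.2 FPKM in the library labelled shTRIP13 and 33.4 in the control, a ratio of 1.26 (1.19 to 1.35). BAX stood at 4.33 times BAK1 there and at 7.49 times BAK1 in the control, so BAK1 differed more than BAX. BOK, a further effector, had 9 reads against 0, so no ratio could be formed. The lower bound of its counting interval was 1.97, at a level of only 0.171 against 0 FPKM. With BAX and BOK, the effectors summed to 52.1 against 37.8 FPKM.

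The other BH3-only genes were close to level. PMAIP1, which encodes NOXA, a selective binder of MCL1, had 10.3 against 9.23 FPKM, a ratio of 1.11 (0.968 to 1.27). BBC3, which encodes the stress-induced activator PUMA, had 2.95 against 3.42 FPKM, a ratio of 0.863 (0.704 to 1.06). HRK, best known from neurons, had 8.89 against 9.09 FPKM, a ratio of 0.978 (0.902 to 1.06). None of these 3 ratios was distinguishable from 1 at this depth on the deposited scale. With the median ratio set to 1, BBC3 at 0.783 (0.638 to 0.959) and HRK at 0.888 (0.819 to 0.963) lay below 1.

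Among the more distant family genes, BCL2L12 had 23.1 against 15.7 FPKM, a ratio of 1.46 (1.33 to 1.62). It shares 33.1% of its exon length with IRF3 on the other strand, which had 1712 against 1786 reads. BCL2L13, a mitophagy receptor, had 10.3 against 8.71 FPKM, a ratio of 1.18 (1.10 to 1.28). BNIP3, another mitophagy receptor and a hypoxia target, had 23.4 against 21.0 FPKM, a ratio of 1.12 (1.05 to 1.18). Once the median ratio was scaled to 1, the intervals of both BCL2L13 (0.997 to 1.16) and BNIP3 (0.956 to 1.07) held 1. BCL2L10 had 2 against 3 reads and BCL2L15 12 against 11, and BCL2L14 was at 0 in both libraries.

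Most of the listed apoptosome and mitochondrial genes were higher in the library labelled shTRIP13. Of 9 genes, 7 had a log2 ratio above the median of all tested genes. The same 7 had a counting interval above 1, and 0 were past the size rule. Of all tested genes, 49.0% had such an interval and 6.36% were past the size rule. After scaling the median ratio to 1, 6 of the 9 intervals lay above 1, beside 37.9% of all tested genes. Of the 9, 8 were tested genes, with 7 intervals above 1 as deposited and 6 after that scaling. The median was 0.48, against 0.12 for all tested genes. VDAC3, a channel of the outer mitochondrial membrane, was highest at 41.6 against 23.7 FPKM, a ratio of 1.75 (1.64 to 1.87). CYCS, the cytochrome c that active effectors release, had 91.0 against 54.1 FPKM, a ratio of 1.68 (1.62 to 1.74). APAF1, the scaffold that cytochrome c assembles into the apoptosome, was lowest at 1.23 against 1.92 FPKM, 1.56-fold lower (1.29 to 1.88). CYCS and some pathway genes below were chosen for their link to the members after their values had been seen.

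Of 9 genes for caspases and their adaptors, 4 had a counting interval above 1 and 2 below, and 0 were past the size rule, with a median log2 ratio of -0.0046. The shares of all tested genes were 49.0%, 29.5% and 6.36%. After scaling the median ratio to 1, 3 lay above and 5 below, beside 37.9% and 38.1%. Of the 9, 8 were tested genes, with 4 above and 1 below as deposited and 3 and 4 after that scaling. CASP2 was highest at 7.70 against 4.10 FPKM, a ratio of 1.88 (1.71 to 2.07). CFLAR, an inhibitor of caspase-8, was lowest among those with a mean FPKM of 1 or more. It had 3.74 against 4.94 FPKM, 1.32-fold lower (1.24 to 1.41). CASP8, whose product cleaves BID, had 5.71 against 5.73 FPKM, a ratio of 0.996 (0.902 to 1.10). CASP9, which APAF1 activates, had 1.86 against 2.13 FPKM, a ratio of 0.876 (0.717 to 1.07). On that rescaled basis, CASP8 at 0.904 (0.819 to 0.998) and CASP9 at 0.795 (0.650 to 0.970) lay below 1.

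Of 7 inhibitor of apoptosis genes, 2 had a counting interval above 1 and 1 below, and 0 were past the size rule, against 49.0%, 29.5% and 6.36% of the tested genes. Rescaled to a median ratio of 1, 2 lay above and 2 below, beside 37.9% and 38.1% of the tested genes. Of the 7, 5 were tested genes, and these gave the same counts. The median log2 ratio was 0.03. BIRC2, which encodes cIAP1, had 15.2 against 8.17 FPKM, a ratio of 1.86 (1.70 to 2.04), and BIRC5, the mitotic protein survivin, had 45.1 against 25.3, a ratio of 1.78 (1.68 to 1.89). XIAP, the direct caspase inhibitor, was lowest at 15.5 against 17.7 FPKM, a ratio of 0.873 (0.829 to 0.919).

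Of 13 regulators and partners of the members, 5 had a counting interval above 1 and 4 below, and 1 was past the size rule, with a median log2 ratio of 0.04. The shares of the tested genes were 49.0%, 29.5% and 6.36%. Rescaled to a median ratio of 1, 4 lay above and 5 below, beside 37.9% and 38.1% of the tested genes. Of the 13, 12 were tested genes, and these gave the same counts. The gene past the size rule was BAG1, a co-chaperone that binds BCL2, at 7.38 against 2.74 FPKM, a ratio of 2.70 (2.39 to 3.04). Its log2 ratio of 1.16 was 0.68 with a pseudocount of 5 FPKM, short of the size rule. PIM1, a kinase that phosphorylates BAD, was lowest at 4.73 against 7.73 FPKM, 1.63-fold lower (1.40 to 1.91). DYNLL1, the dynein light chain that sequesters BIM, had 93.7 against 61.2 FPKM, a ratio of 1.53 (1.47 to 1.60). DYNLL2, which sequesters BMF, had 21.3 against 20.6, a ratio of 1.03 (0.978 to 1.09) as deposited and 0.935 (0.887 to 0.986) after that rescaling.

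Some genes that control MCL1 protein stability were named after their values had been seen. Protein was not measured, and the part of these genes in the MCL1 difference was not tested. HUWE1, a ubiquitin ligase of MCL1, had 25.5 against 22.3 FPKM, a ratio of 1.14 (1.11 to 1.18), and 1.04 (1.01 to 1.07) with the median ratio set to 1. USP9X, the deubiquitinase of MCL1, had 14.7 against 16.0 FPKM, a ratio of 0.919 (0.880 to 0.959), rescaled 0.834 (0.798 to 0.871). MARCH5, a mitochondrial ligase, had 8.35 against 6.88 FPKM, a ratio of 1.21 (1.09 to 1.35), and its rescaled interval held 1 (0.989 to 1.23). GSK3B, a kinase that marks MCL1 for degradation, had 12.1 against 13.0 FPKM, a ratio of 0.929 (0.872 to 0.989), rescaled 0.843 (0.792 to 0.897). BTRC, a further ligase subunit, had 3.31 against 3.34 FPKM.

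**Figure D4:**
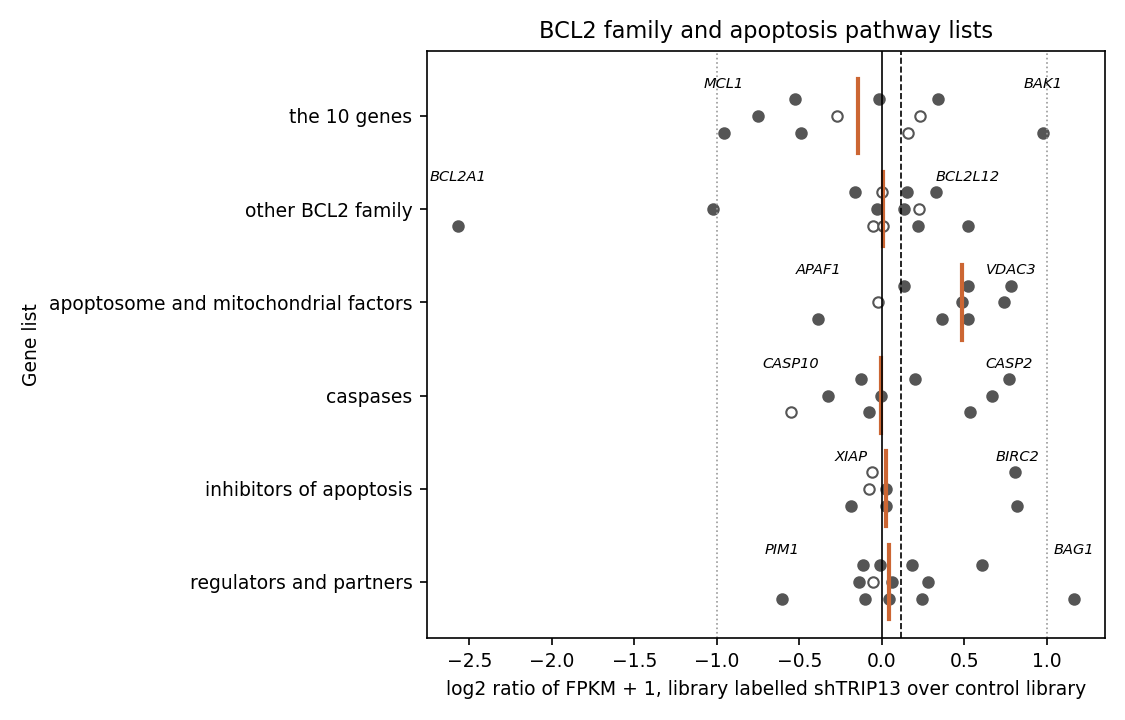
Log2 ratio of FPKM + 1 (library labelled shTRIP13 over control) for each gene of the 10 and of 5 lists, filled where the mean FPKM is 1 or more and open where it is lower; the orange bar is the median of all genes of the list, and the lowest and highest gene of each list are named. The dashed line is the median of all tested genes, 0.12, and the dotted lines the size rule; the apoptosome and mitochondrial genes have the highest list median, 0.48, and BCL2A1 the lowest log2 ratio, -2.57.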

How the data were processed

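RNA sequencing libraries of total RNA were made with the NEBNext Ultra kit per the labels' protocols, 1 library per group. The authors deposited 1 table of FPKM values with gene positions and exon lengths. Per the submitters' processing notes, the build was hg38 and the tools were HISAT2 2.0.5, featureCounts 1.5.0-p3 and edgeR. What each tool did, which annotation was counted and whether strand was used is not given in the sources used here.

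FPKM times exon length was a whole multiple of 1 step, 51.6, shared by both libraries, within 0.001 of a read for 100% of the values. This gave the reads and shows that both columns were divided by 1 common total, so ratios carry the depth ratio of 1.055. A pseudocount of 1 FPKM and a minimum mean of 1 FPKM over 19951 protein-coding genes were used for the log2 ratio. PCR copies were not marked by molecular identifiers, so intervals cover counting error only. With 1 library per group no count model was fitted. Exon overlaps, transcripts and coding bases came from GENCODE release 29 (hg38), in which the coding transcript of each gene was the complete one with the best APPRIS rank, then the longest. The calculations were tested on simulated data. Intervals came from scipy 1.17.1, tables were handled with pandas 2.3.3 and numpy 2.4.6 in Python 3.11.15, and plots were drawn with matplotlib 3.10.9.

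The 10 genes and the lists were chosen with earlier results of these data known. Named genes were the 10, the 13 other family genes, and of each pathway list the genes past the size rule and the highest and lowest log2 ratio at a mean FPKM of 1 or more. CYCS, CASP8, CASP9, BIRC5, DYNLL1, DYNLL2, HUWE1, USP9X, MARCH5, GSK3B and BTRC fall outside that rule and were named for their link to the members after their values had been seen. BIRC3, BIRC6 and FBXW7 were named only for a change of sign, and DIABLO for its 2 identifiers. MARCH5 was matched by its gene identifier, since its name in the table is altered to a date. The list of regulators and partners was used without 1 of its genes, which is not analysed here.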

Additional observations from a re-analysis of the deposited data

How the results depend on the processing

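No paired analysis was possible because the labels give 1 library for each group, and no library could be left out. Of 7 alternatives, 5 change the values and 2 change only the filter. The log2 ratio of each of the 10 genes kept its sign under all 5. A change of pseudocount cannot turn a sign, and each scaling lowers every ratio by a common factor. The kept signs are thus little support. Of the 50 alternative values of the 10 genes, 34 lay inside the counting interval of the reported value. BAK1 ranged from 0.64 to 1.11, MCL1 from -1.09 to -0.92, BMF from -1.13 to -0.30, BCL2L1 from -0.66 to -0.47 and BID from -0.64 to -0.36. The count of the 10 past the size rule, reported as 0, was 2 with a pseudocount of 0.1 FPKM (BAK1 and BMF), 1 with each library divided by its own total (MCL1), 1 with the median ratio set to 1 (MCL1) and 2 after rescaling to TPM (MCL1 and BMF). It was 0 with a pseudocount of 5 FPKM, without the filter and at a mean FPKM of 5 or more. The median log2 ratio of the 10, reported as -0.14, was -0.28 with a pseudocount of 0.1 FPKM and -0.39 after rescaling to TPM. Rescaling to TPM changes both the weight of the pseudocount and the scaling between libraries. Over all tested genes, 679 were past the size rule, 1085 with a pseudocount of 0.1 FPKM, 244 with 5 FPKM and 1233 of 12183 after rescaling to TPM. Of those past the rule, 34.2% were higher as deposited, 20.2% with the median ratio set to 1 and 22.5% after rescaling to TPM. These scalings moved the median log2 ratio of the tested genes by -0.12 each. Outside the 10, BCL2L15, BIRC3, BIRC6, DYNLL2 and FBXW7 changed sign with the median ratio set to 1, from log2 ratios near 0. Depth limits BIK, BCL2L10, BCL2L15 and BOK, which had at most 12 reads in a library.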

Other observations

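DIABLO, which encodes the mitochondrial inhibitor of XIAP also called SMAC, carried 2 gene identifiers in the table that lie over each other on chromosome 12. Its main identifier had 52 reads in the library labelled shTRIP13 and 55 in the control, a ratio of 0.945 (95% counting interval 0.635 to 1.41), and the second identifier had 2 and 0 reads. Its level of 0.396 against 0.419 FPKM is therefore uncertain.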
